A study of Mus musculus with 24 samples.

Results

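The genes of actin, tropomyosin and contractile proteins described here are Actb, Actg1, Tpm1, Tpm2, Tpm4, Cald1, Tagln, Tagln2, Cnn2 and Vcl. They were followed through all probe sets of the Affymetrix chips MOE430A and MOE430B that the platform annotation gives to 1 of these 10 symbols alone. That rule took 30 of 45265 probe set rows, of which 6 are the beta-actin control designs, 3 on each chip, and 24 are ordinary probe sets, of which MOE430A carries 20 and MOE430B carries 4. The 10 genes are part of 18194 genes named on the chips. They were chosen from earlier results of these data, and their differences between cultures are counted as part of that choice, so these are given as a description: counts of members past the whole-table threshold are printed beside the share of all probe sets, and no support is drawn from them. Tests are also given for D2 against D1 within each culture and for the interaction of culture with stage. The interaction is the culture difference at D2 minus that at D1, so it is not independent of the choice. Whether the choice also drew on differences between stages is not recorded.

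The cells were P19, a line of embryonal carcinoma cells from the mouse that can still form many cell types, and the study asked how aggregation alters gene expression when differentiation begins. The 4 groups were suspension culture at D1, monolayer culture at D1, suspension culture at D2 and monolayer culture at D2, with 3 RNA samples in each. What D stands for is not stated, and no inducer, mutation or transgene is named for any group. All groups shared Alpha medium with fetal bovine and calf serum, and the cells are described as a single clonal culture, so 1 clone stands for the cell type. Each of the 12 RNA samples was hybridised to both chips, which gives 24 arrays, and the labels do not say whether samples of a group came from separate cultures. The p-values therefore measure only the spread between these samples, which may be technical.

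Actin filaments give a cell its shape and pull on its contacts with the matrix and with other cells. Tropomyosins lie along the filament and govern which proteins reach it, caldesmon, transgelin and calponin bind the filament and restrain or bundle it, and vinculin ties it to adhesion sites. Many of these genes are classical targets of serum response factor (SRF), which acts with cofactors that sense free actin and binds a DNA element called the CArG box, and some also respond to TEAD factors, which bind the M-CAT element.

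Promoters, from 250 bases before to 50 after an annotated start, were available from RefSeq (GRCm38.p6) for 8 of the 10 genes, Cald1 with 2 starts, which makes 9 sequences. The promoters of Actb and Tagln were not searched. The 9 sequences were searched on both strands for the CArG box and for the M-CAT core CATTCC, and no match of one motif overlapped the other. The 5 sequences below are shown because Cald1 and Tpm1 had signals lower in suspension, and because Vcl, Actg1 and Cnn2, which differed little at their brightest probe set, hold a CArG box. Sequences run 5′ to 3′ along the gene's strand, and capitals mark the motif matches (GGAATG is the M-CAT core read on the other strand).
Cald1 (chr6:34598254-34598553, plus strand): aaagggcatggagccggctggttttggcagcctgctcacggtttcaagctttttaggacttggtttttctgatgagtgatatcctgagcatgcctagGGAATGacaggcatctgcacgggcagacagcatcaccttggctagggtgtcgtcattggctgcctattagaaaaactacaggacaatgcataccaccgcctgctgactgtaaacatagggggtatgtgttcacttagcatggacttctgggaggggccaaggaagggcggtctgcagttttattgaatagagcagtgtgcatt
Tpm1 (chr9:67049164-67049463, minus strand): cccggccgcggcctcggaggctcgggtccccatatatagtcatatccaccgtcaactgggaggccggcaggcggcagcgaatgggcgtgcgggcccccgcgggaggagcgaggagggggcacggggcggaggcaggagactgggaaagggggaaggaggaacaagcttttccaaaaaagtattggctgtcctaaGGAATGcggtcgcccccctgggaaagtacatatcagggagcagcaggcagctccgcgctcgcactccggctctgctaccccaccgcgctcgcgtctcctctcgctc
Vcl (chr14:20929148-20929447, plus strand): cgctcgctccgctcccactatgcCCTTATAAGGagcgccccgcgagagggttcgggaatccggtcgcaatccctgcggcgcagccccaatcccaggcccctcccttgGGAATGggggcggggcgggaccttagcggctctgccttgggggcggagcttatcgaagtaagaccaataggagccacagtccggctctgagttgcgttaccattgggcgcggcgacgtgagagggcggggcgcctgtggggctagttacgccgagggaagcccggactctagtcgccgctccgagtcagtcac
Actg1 (chr11:120348446-120348745, minus strand): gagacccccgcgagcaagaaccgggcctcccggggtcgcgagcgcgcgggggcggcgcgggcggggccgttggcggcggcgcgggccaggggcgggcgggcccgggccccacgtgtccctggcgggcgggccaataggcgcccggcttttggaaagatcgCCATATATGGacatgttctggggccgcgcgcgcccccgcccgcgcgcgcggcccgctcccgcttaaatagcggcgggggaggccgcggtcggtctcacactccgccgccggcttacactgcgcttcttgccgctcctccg
Cnn2 (chr10:79988350-79988649, plus strand): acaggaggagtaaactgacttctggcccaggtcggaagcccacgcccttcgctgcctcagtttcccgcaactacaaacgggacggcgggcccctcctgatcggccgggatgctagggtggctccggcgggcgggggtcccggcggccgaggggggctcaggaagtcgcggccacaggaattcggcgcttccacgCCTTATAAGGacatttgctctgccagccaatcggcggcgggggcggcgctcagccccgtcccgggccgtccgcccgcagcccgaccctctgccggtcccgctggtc
A CArG box was found in the Vcl, Actg1 and Cnn2 promoters, starting 227, 90 and 56 bases before the start, and in 1.63% of all 32851 promoters. The M-CAT core was found in Cald1 at its first start (153 bases before it), Tpm1 (56), Vcl (143) and Tagln2 (118 and 80), and in 14.7% of all promoters. Vcl held both, as did 0.228% of all promoters. The sequence at the other Cald1 start held no match of either motif. These matches describe letters in a window and do not show that a factor bound there. A link of the motifs to the culture differences was not tested.

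Signals are linear MAS5 intensities in arbitrary units, which can be compared between samples for 1 probe set but not between probe sets. Differences are on the scale of log2(signal + offset), with the standard error of the fit, and understate changes of dim probe sets. To enter the test, a probe set had to lie above its chip's median signal on 3 or more of the 12 arrays. This held for 21 of the 24 ordinary member probe sets and for 26516 probe sets in all. The threshold was an adjusted p of 0.05 over both chips.

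The P19 markers on the list (Pou5f1, Nanog, Sox2, Zfp42, Utf1 and Lin28a) all had probe sets, and their summed signal was 93821 to 99657 in suspension and 114301 to 120803 in monolayer at D1, and 102152 to 111368 in suspension and 106190.0 to 137508 in monolayer at D2. Of the 15 fibroblast marker probe sets 3 were tested, and their sum over all 15 was 3749 to 5901 in suspension and 5823 to 6640.4 in monolayer at D1, and 4162 to 5914 in suspension and 4228 to 5297 in monolayer at D2. Of the muscle marker probe sets 3 of 13 were tested and of the blood marker probe sets 1 of 4. No gene of these 4 lists passed in any comparison. The part of other cells in the results was not tested. For this report the arrays were put into 3 batches by station and by a morning or afternoon time in the hybridization date field of their records. They are called wash batches here, and the afternoon arrays, batch 3, are the later wash run. Each batch has 1 sample of each group, and values within batches are given below.

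**Figure D1:**
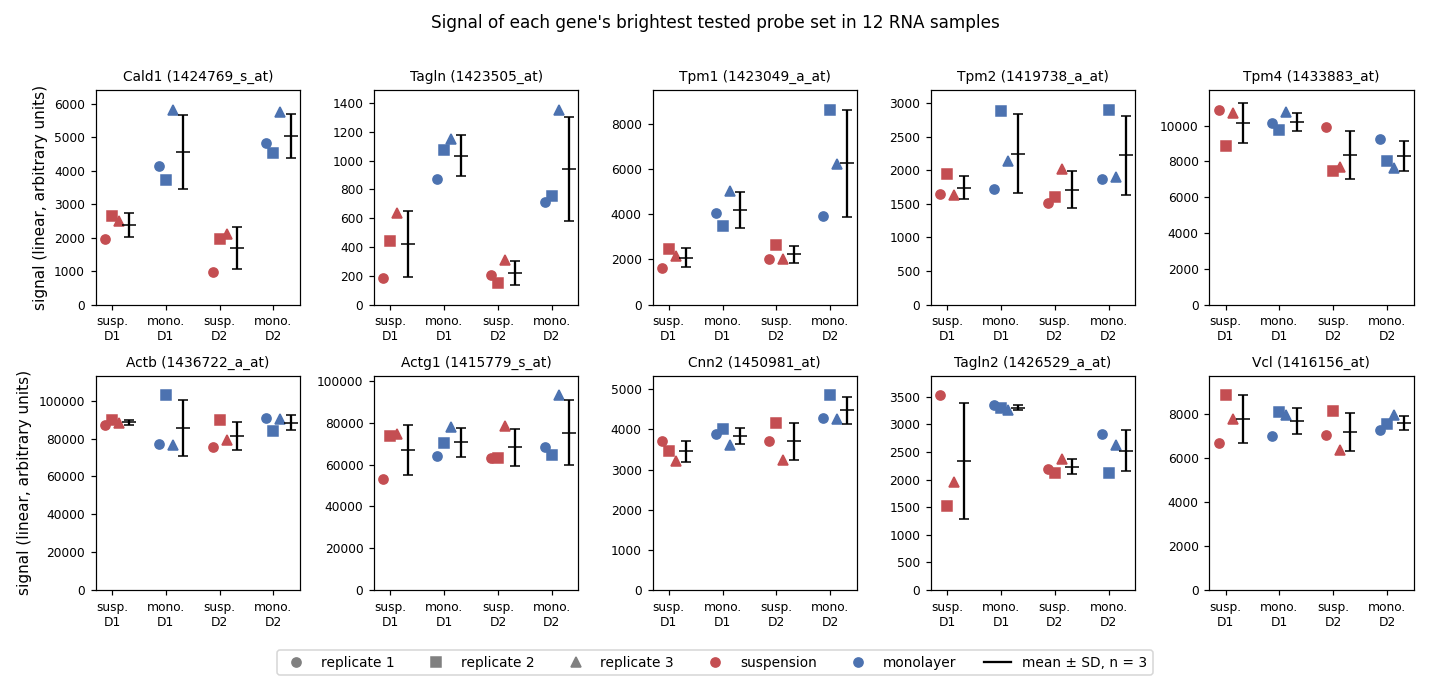
Linear signal (arbitrary units) of the brightest tested probe set of each of the 10 genes in 12 RNA samples, by group on the x axis, with points for replicates and black bars for the mean ± SD (n = 3). Cald1, Tagln and Tpm1 signals of all 6 suspension samples lay below those of all 6 monolayer samples, while the groups of Actb, Actg1, Tpm4 and Vcl overlapped.

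The caldesmon, transgelin and tropomyosin 1 genes had lower signals in suspension than in monolayer culture at both stages, while the actins, Tpm4 and the brightest Vcl probe set hardly differed. Averaged over the stages, the brightest Cald1 probe set was 2.41-fold, Tagln 3.01-fold and the brightest Tpm1 probe set 2.31-fold lower in suspension on the log2(signal + offset) scale. Of the 21 tested member probe sets 4 passed in that average, all lower and from 3 genes, against 0.256% of all tested probe sets (0.14% counted in the lower direction). At D2, 1 member probe set, of Cald1, passed, against 0.0528% of all (0.0415% lower). At D1 no member passed limma's test, against 0.0528% of all, and 8 members had an unadjusted p under 0.05, as did 5.19% of all. All 6 suspension samples lay below all 6 monolayer samples for 4 members, against 0.426% of all probe sets. At D1 the 3 suspension samples lay below the 3 monolayer samples for 6 members, against 5.43% of all, and at D2 for 8 members, against 6.34%. Nothing is read from these shares, since the genes were chosen on the same contrast. In bulk samples, fewer cells with a transcript and less transcript per cell cannot be told apart.

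Beta-actin and gamma-actin are the cytoplasmic actins that build the filaments of nonmuscle cells. The Actb probe set 1436722_a_at (gene at chr5:142903115-142907976, GRCm38.p6) read 87361, 90052 and 88449 in suspension and 77244, 102888 and 76605 in monolayer at D1. At D2 it read 75621, 89640.5 and 79199 in suspension and 90829, 83741 and 90284 in monolayer. The groups overlapped at both stages, and the difference averaged over stages was -0.03 ± 0.11 (SE) in log2, with a 95% interval of -0.26 to 0.20.

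The second Actb probe set, 1419734_at, averaged 14647 ± 2582 in suspension and 12653 ± 2945 in monolayer at D1 (SD, n = 3 each), and 13222 ± 1733 in suspension and 15475 ± 1931 in monolayer at D2. Its culture differences in log2 were 0.22 ± 0.19 at D1 and -0.23 ± 0.19 at D2 (SE), and the groups overlapped at each stage. Actg1 1415779_s_at (chr11:120345687-120348495) read 53102, 73626 and 74498 in suspension and 63927, 70376 and 77899 in monolayer at D1, and 63126, 63132 and 78625 in suspension and 68418, 64427 and 93227 in monolayer at D2. Its averaged difference was -0.11 ± 0.13 (SE), with a 95% interval of -0.39 to 0.17. The suffix of this probe set marks a design that can read several transcripts, and actin genes are near-identical in their coding parts, so its signal may not come from Actg1 alone.

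The beta-actin control designs read the 3′ end, the middle and the 5′ end of the same transcript, and the ratio of the 3′ to the 5′ signal is a customary measure of RNA length and of the labelling reaction. On MOE430B the ratio was 1.28, 1.33 and 1.25 in suspension and 0.968, 1.01 and 1.13 in monolayer at D1, so the groups did not overlap. The difference was 0.25, with an exact two-sided permutation p of 0.1, the smallest that 3 samples against 3 allow (0.4 after Benjamini-Hochberg adjustment over 8 tests). On MOE430A the same RNA gave 1.25 ± 0.06 in suspension and 1.09 ± 0.11 in monolayer at D1 (SD, n = 3 each), which overlapped, with an exact permutation p of 0.2. At D2 the ratios were closer, at 1.07 ± 0.04 in suspension and 1.01 ± 0.10 in monolayer on MOE430B (exact permutation p = 0.4) and 1.16 ± 0.09 in suspension and 1.115 ± 0.11 in monolayer on MOE430A (exact permutation p = 0.5). In suspension on MOE430B the ratio was lower at D2 than at D1 by 0.215 with no overlap (exact permutation p = 0.1, adjusted 0.4).

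The 3′ beta-actin signal on MOE430A stayed between 57064 and 76959.6 over all 12 arrays. It averaged 69906 ± 6067 in suspension and 69658 ± 10953 in monolayer at D1 (SD, n = 3 each), and 70347 ± 3735 in suspension and 70395 ± 2782 in monolayer at D2. The 3′ signal of the ribosomal RNA control on MOE430A was 56079 ± 12666 in suspension and 28894 ± 17080 in monolayer at D1, and 60084.9 ± 3424 in suspension and 45450 ± 12762 in monolayer at D2 (SD, n = 3 each), with overlapping groups and exact permutation p of 0.2 and 0.3. The 3′ to 5′ ratio and the ribosomal control signal averaged higher in suspension at D1 and at D2, on both chips. The Cald1, Tagln and Tpm1 signals were lower in suspension at both stages, and the part of these controls in those differences was not tested.

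**Figure D2:**
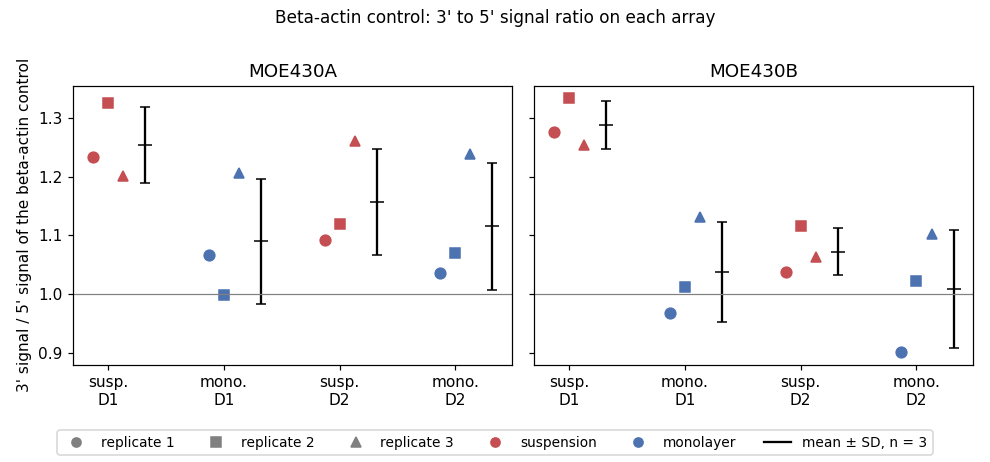
Ratio of 3′ to 5′ signal of the beta-actin control on each array (y axis, no unit) by group, on MOE430A and MOE430B, with replicates as points and black bars for the mean ± SD (n = 3). On MOE430B the suspension D1 arrays, from 1.25 to 1.33, lay above the other 9 arrays, which reached 1.13.

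The tropomyosin genes did not behave alike. Tpm1, the gene of alpha-tropomyosin (chr9:67022590-67049672), was lower in suspension at 3 of its 4 tested probe sets. Probe set 1423049_a_at read 1617, 2438 and 2136 in suspension and 4064, 3466 and 5012 in monolayer at D1. At D2 it read 1997, 2647 and 2015 in suspension and 3893, 8615 and 6233 in monolayer. Every suspension sample lay below every monolayer sample, and the monolayer D2 samples were the most spread. The differences were -1.004 ± 0.26 at D1 and -1.41 ± 0.26 at D2 in log2 (SE).

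Probe set 1423721_at of Tpm1 read 1901, 1608 and 1789.6 in suspension and 3945, 2847 and 4357 in monolayer at D1, and 2009, 2652 and 1518 in suspension and 2704, 5784 and 3665 in monolayer at D2. Here too every suspension sample lay below every monolayer sample, although the highest suspension value, 2652, was close to the lowest monolayer value, 2704. The difference averaged over stages was -0.98 ± 0.19 (SE). It passed without monolayer D1 replicate 2, monolayer D2 replicate 1 or suspension D2 replicate 2, and did not pass without any 1 of the other 9 samples. Probe set 1456623_at averaged 654 ± 355 in suspension and 1398 ± 467 in monolayer at D1, and 1218 ± 283 in suspension and 2091 ± 225 in monolayer at D2 (SD, n = 3 each). Its difference averaged over stages was -0.96 ± 0.27 (SE) and did not pass.

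The fourth Tpm1 probe set, 1447713_at on MOE430B, showed no such difference: it averaged 1021 ± 107 in suspension and 1108 ± 433 in monolayer at D1, and 949.8 ± 412 in suspension and 1057 ± 257 in monolayer at D2 (SD, n = 3 each). Its averaged difference was -0.12 ± 0.29 (SE), with a 95% interval of -0.74 to 0.50. Over the 12 samples, 1423049_a_at and 1423721_at correlated with Pearson's r of 0.919, which was 0.343 within the 6 suspension and 0.839 within the 6 monolayer samples. Against 1447713_at on the other chip, 1423049_a_at had an r of 0.374. These correlations are descriptions over samples that share the culture difference. Tpm1 makes several spliced transcripts, and the files do not say which of them each probe set reads.

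Tpm2, the gene of beta-tropomyosin (chr4:43513726-43523583), had its brightest probe set, 1419738_a_at, at 1653, 1938 and 1631 in suspension and 1728, 2888 and 2132 in monolayer at D1, and at 1514, 1602 and 2023 in suspension and 1864, 2905 and 1897 in monolayer at D2. The groups overlapped at both stages, and the averaged difference was -0.34 ± 0.15 (SE), which did not pass. Its probe sets 1419739_at and 1425028_a_at differed by 0.16 ± 0.22 and -0.77 ± 0.47, in opposite directions and within their intervals of -0.30 to 0.63 and -1.77 to 0.23. A last Tpm2 probe set, 1449577_x_at, was too dim for the test, at 8.39 to 97.6 in suspension and 73.4 to 154 in monolayer samples.

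Tpm4, the gene of a short tropomyosin of nonmuscle cells (chr8:72135288-72153142), read 10899, 8883 and 10713 in suspension and 10175, 9752 and 10754 in monolayer at D1. At D2 it read 9902, 7472 and 7707 in suspension and 9236, 8014 and 7626 in monolayer. The culture groups overlapped, and the averaged difference was -0.00 ± 0.11 (SE), with a 95% interval of -0.23 to 0.22.

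Caldesmon, the product of Cald1 (chr6:34598495-34775469), binds actin and tropomyosin and restrains myosin on the filament. The brightest Cald1 probe set, 1424769_s_at, read 1966, 2658 and 2483 in suspension and 4153, 3717 and 5824 in monolayer at D1. At D2 it read 973, 1965 and 2112 in suspension and 4819, 4515 and 5764 in monolayer. Every suspension sample lay below every monolayer sample at both stages, and the lowest of all was a suspension D2 sample. The differences were -0.92 ± 0.26 at D1 and -1.62 ± 0.26 at D2 in log2 (SE), or 1.89-fold and 3.07-fold. The D2 call held without monolayer D1 replicate 2 or 3 or suspension D2 replicate 2 or 3, and was lost without any 1 of the other 8 samples, when the difference lay between -1.28 and -1.69. The averaged call held on leaving out each of the 12 samples in turn. This probe set may read several transcripts by its suffix.

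The other 3 tested Cald1 probe sets also had mean signals lower in suspension at both stages, with more spread. Probe set 1424770_at read 985, 1582 and 404 in suspension and 1747, 1929 and 1023 in monolayer at D1, and 176, 979 and 155 in suspension and 2016, 2271 and 1361 in monolayer at D2. At D2 the suspension samples were all below the monolayer samples, and at D1 the groups overlapped. Its differences were -0.77 ± 0.55 at D1 and -2.38 ± 0.55 at D2 (SE). Probe set 1424768_at averaged 683 ± 303 in suspension and 1250.4 ± 403 in monolayer at D1, and 637 ± 188 in suspension and 1359 ± 460.1 in monolayer at D2 (SD, n = 3 each).

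The MOE430B probe set of Cald1, 1433147_at, read 1156, 1117 and 394 in suspension and 1259, 1244 and 1652 in monolayer at D1, and 1503, 986 and 351 in suspension and 1017, 1485 and 1627 in monolayer at D2. Its averaged difference of -0.67 ± 0.35 (SE) came from batch 3, where it was -1.86, while in batches 1 and 2 it was -0.06 and -0.08. The last Cald1 probe set, 1433146_at, was too dim for the test, at 137 to 492 in suspension and 186 to 349 in monolayer samples, and its D1 mean was higher in suspension (269.6) than in monolayer (245).

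Transgelin, the product of Tagln (chr9:45929628-45936058), is an actin-binding protein of the calponin family best known from smooth muscle. Tagln 1423505_at read 184, 441 and 639.6 in suspension and 874, 1076 and 1150.5 in monolayer at D1. At D2 it read 202, 149 and 309.8 in suspension and 714, 758 and 1355 in monolayer. No suspension sample reached any monolayer sample, and 5 of the 6 suspension signals lay below the chip's median signal of 599.8. The differences were -1.32 ± 0.40 at D1 and -1.86 ± 0.40 at D2 in log2 (SE). The averaged call, at -1.59 ± 0.28 (SE), held without suspension D1 replicate 3 or suspension D2 replicate 3 and was lost without any 1 of the other 10 samples, with the difference between -1.37 and -1.67 in those fits.

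Tagln2, a relative of transgelin found in many cell types (chr1:172500246-172507375), read 3526, 1531 and 1961 in suspension and 3343, 3298 and 3257 in monolayer at D1 at probe set 1426529_a_at. At D2 it read 2199, 2117 and 2379 in suspension and 2832, 2113 and 2625 in monolayer. The groups overlapped at both stages: suspension D1 replicate 1 had the highest value of all, and monolayer D2 replicate 2 lay below the 3 suspension D2 samples. The D1 difference was -0.57 ± 0.24 (SE) and was -0.91 without that sample, and neither passed. The probe set 1439407_x_at averaged 1140.4 ± 399 in suspension and 1109 ± 294 in monolayer at D1, and 721 ± 272 in suspension and 924 ± 395 in monolayer at D2 (SD, n = 3 each). The third, 1420245_x_at on MOE430B, was too dim for the test, at 21.8 to 587 in suspension and 25.6 to 425 in monolayer samples. By their suffix these 2 may also read other genes.

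Calponin 2, the product of Cnn2 (chr10:79988600-79995400), is the calponin of nonmuscle cells and lies on stress fibres. Cnn2 1450981_at read 3719, 3456 and 3201 in suspension and 3880.0, 4017 and 3622 in monolayer at D1, and 3703, 4170.0 and 3249 in suspension and 4295, 4851 and 4268 in monolayer at D2. At D2 all suspension samples lay below all monolayer samples, by a small margin. The averaged difference was -0.21 ± 0.10 (SE), with a 95% interval of -0.42 to 0.00, and it did not pass.

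Vinculin, the product of Vcl (chr14:20929383-21033676), links actin to integrin and cadherin adhesions. Vcl 1416156_at read 6689, 8863 and 7798 in suspension and 6999, 8081 and 7944 in monolayer at D1, and 7074, 8128 and 6393 in suspension and 7289, 7548 and 7955 in monolayer at D2. The groups overlapped, and the averaged difference was -0.03 ± 0.10 (SE), with a 95% interval of -0.26 to 0.18. Its other probe set, 1416157_at, read 894, 1116 and 1851 in suspension and 2116, 2033 and 2139 in monolayer at D1. There the suspension samples were all lower, by -0.75 ± 0.24 in log2 (SE), which did not pass, and at D2 the difference was -0.24 ± 0.24. The pair correlated with an r of 0.039 over the 12 samples.

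**Figure D3:**
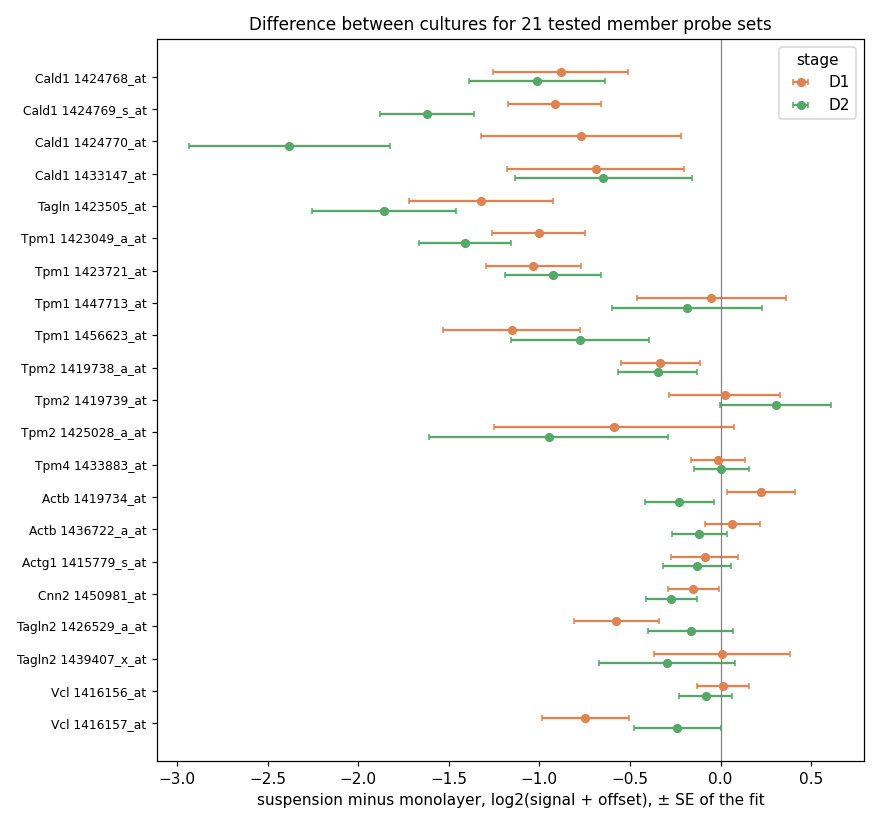
Difference between suspension and monolayer culture in log2(signal + offset) (x axis) for the 21 tested member probe sets (y axis) at D1 and D2, with bars of 1 SE of the fit. Differences ran from -1.32 to 0.22 at D1 and from -2.38 to 0.31 at D2, with Cald1, Tagln and Tpm1 furthest to the left.

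Over the 21 tested members the median difference between suspension and monolayer was -0.57 at D1, -0.30 at D2 and -0.37 in the average over stages, beside medians of -0.02, 0.01 and -0.01 over all tested probe sets. The D1 median was -0.30 without suspension D1 replicate 1, -0.27 without suspension D1 replicate 3 and -0.26 with array weights, so no order of D1 and D2 is read from these medians. Values lay below 0 for 16 members at D1, 19 at D2 and 20 in the average, beside 52.7%, 49.2% and 51.8% of all tested probe sets. Nothing is read from these counts, since the genes were chosen on the same contrast. At the brightest probe set, the Cald1, Tagln and Tpm1 averages were below 0 in each wash batch. Every suspension sample lay below every monolayer sample there, so the sign within batches was fixed and is no separate check. Averaged over stages they were -1.32, -1.17 and -1.32 in batches 1, 2 and 3 for Cald1 1424769_s_at. They were -1.43, -1.96 and -1.38 for Tagln, and -1.29, -0.93 and -1.41 for Tpm1 1423049_a_at. Without batch 3, with 2 samples a group, they were -1.24, -1.70 and -1.11 and none passed. With the batch as a block the values over all 3 batches were the same as without it, since each batch holds 1 sample of each group.

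**Figure D4:**
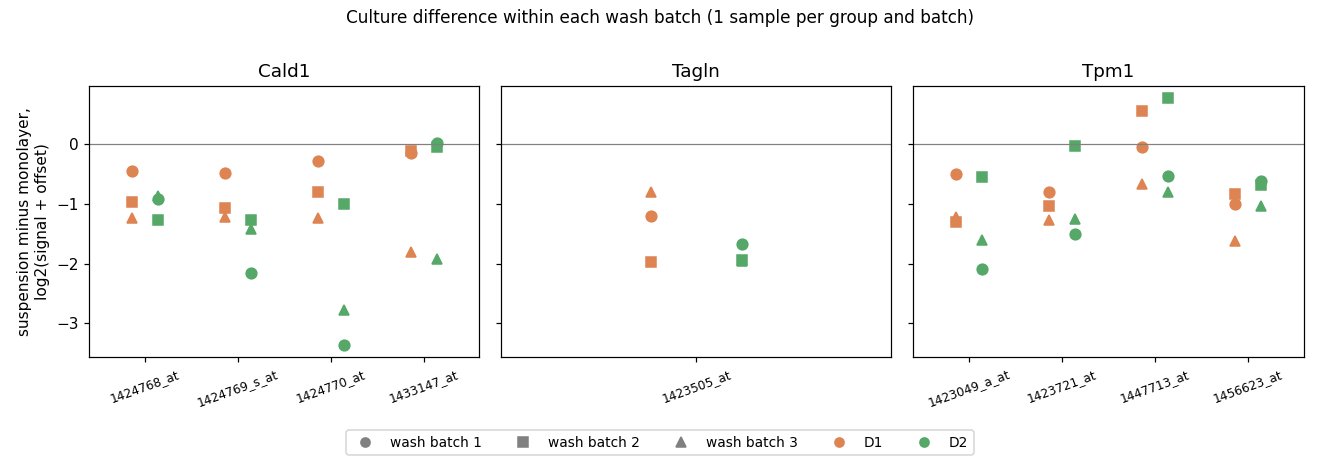
Difference between suspension and monolayer culture in log2(signal + offset) (y axis) within each of 3 wash batches for every tested probe set (x axis) of Cald1, Tagln and Tpm1, at D1 and D2, each point from 1 sample per culture. Tagln points lay between -1.98 and -0.80, and the Cald1 probe set 1433147_at lay near 0 in batches 1 and 2 and at -1.81 and -1.92 in batch 3.

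Stage was tested within each culture. No member passed limma's test between D2 and D1 in suspension (lowest adjusted p 0.841) or in monolayer (lowest adjusted p 0.645). Of all tested probe sets 0% passed in suspension and 0.00754% in monolayer. Unadjusted p-values under 0.05 were found for 2 members in suspension and 0 in monolayer, and for 5.86% of all probe sets in suspension and 7.98% in monolayer, so the members' counts do not stand apart from the background. The median difference over the members was -0.03 in suspension and -0.01 in monolayer, beside 0.03 and -0.01 over all tested probe sets.

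The 2 members with an unadjusted p under 0.05 in suspension had differences of opposite sign, and neither passed. Cald1 1424770_at differed by -1.33 ± 0.55 between D2 and D1 in suspension (SE), with a 95% interval of -2.52 to -0.15, and by 0.28 ± 0.55 in monolayer. Tpm1 1456623_at differed by 0.99 ± 0.38 in suspension, with an interval of 0.18 to 1.81, and by 0.62 ± 0.38 in monolayer. The brighter Cald1 probe set, 1424769_s_at, differed by -0.54 ± 0.26 in suspension, with an interval of -1.10 to 0.01, and by 0.16 ± 0.26 in monolayer. Tagln differed by -0.71 ± 0.40 in suspension and -0.18 ± 0.40 in monolayer. Tpm4 differed by -0.29 ± 0.15 in suspension and -0.30 ± 0.15 in monolayer.

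The actins were bounded as follows. The brightest Actb probe set differed by -0.12 in suspension, with an interval of -0.45 to 0.20, and by 0.06 in monolayer, with an interval of -0.27 to 0.38. Actg1 differed by 0.04 in suspension (-0.37 to 0.44) and by 0.08 in monolayer (-0.32 to 0.48). Stage differences within these bounds were not detectable with 3 samples a group.

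The interaction, the culture difference at D2 minus that at D1, passed for no member and for 0% of all tested probe sets (adjusted p 1.00 in limma, and no member had an unadjusted p under 0.05). It was -0.70 ± 0.37 for Cald1 1424769_s_at, -0.53 ± 0.56 for Tagln and -0.41 ± 0.36 for Tpm1 1423049_a_at (SE). Its 95% intervals reached from -1.49 to 0.08, from -1.74 to 0.67 and from -1.18 to 0.37, so neither a larger culture difference at D2 nor an equal one was shown for these genes.

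Other genes of the actin system were taken from 7 lists with 77 genes, of which 72 had a probe set and 62 were tested by their brightest one. None passed limma's test in any of the 6 comparisons. Their median culture difference was -0.03 at D1, -0.05 at D2 and -0.07 in the average. In the average 41 of 62 lay below 0, beside 51.8% of all tested probe sets. By role, the averaged medians of 6 of the lists were -0.24 for 2 other actins, 0.05 for 5 thin filament genes, -0.10 for 6 myosin II genes, -0.21 for 17 crosslinker and adhesion genes, 0.01 for 18 filament turnover genes and -0.02 for 3 membrane linkers.

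Acta2, the smooth muscle actin, averaged 1639 ± 153 in suspension and 2075 ± 38.8 in monolayer at D1, and 1930.2 ± 175 in suspension and 2236 ± 249 in monolayer at D2 (SD, n = 3 each). Its differences were -0.34 at D1 and -0.21 at D2. Myh9, a nonmuscle myosin II heavy chain, differed by -0.23 at D1 and -0.78 at D2. Srf itself differed by -0.01 and -0.03, and Tpm3, the remaining tropomyosin gene, by -0.11 and 0.20. None of these passed.

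The genes most like Cald1 and Actb were taken among 6573 other genes represented on MOE430A, by Pearson's r over the 12 samples. For Cald1 1424769_s_at they were Ptgis (r = 0.930, prostacyclin synthase), Sparc (0.914, a secreted matrix protein), Tmem126a (0.894), Wwc1 (0.869) and Irak1bp1 (0.867). Within cultures the r of Ptgis with Cald1 was 0.908 over 6 suspension samples and -0.179 over 6 monolayer samples, and that of Sparc was 0.887 and 0.730. For Actb 1436722_a_at they were Tubb3 (0.842), Kif1a (0.830), Pard6a (0.822), Aldh9a1 (0.811, and 0.289 within suspension) and Wipi1 (0.802). The lists hold for these probe sets, not for the genes. Actb 1419734_at had an r of 0.244 with 1436722_a_at. Cald1 1424769_s_at had an r of 0.486, 0.719 and 0.321 with 1424768_at, 1424770_at and 1433147_at. Over the monolayer samples these were -0.677, -0.735 and 0.588. For Cald1 the likeness over 12 samples includes the culture difference, and all samples share arrays and scaling.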

How the data were processed

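Total RNA of 12 samples was read on MOE430A and MOE430B arrays. The deposited values are linear signal intensities of MAS5, whose version is not given; per the submitters' processing notes, the authors used this software. The deposited intensities had been scaled: the 2% trimmed mean was 1500 or 1501 on every array. The number of arrays, not a read depth, limits the precision. From the deposited intensities, log2 values were computed here after adding an offset (51.0 for MOE430A, 108.1 for MOE430B), the 10th percentile of a chip's signals.

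Probe sets above the chip median (599.8 and 846.4) on fewer than 3 of 12 arrays were not tested. Controls were left out and probe sets on both chips were taken from MOE430A. limma 3.58.1 in R 4.3.3 fitted 1 mean per group, with a trended moderated variance pooled over the groups, and two-sided p-values were adjusted by Benjamini-Hochberg over both chips. The fit was tested on simulated data. Members and lists were chosen with earlier results of these data known. The genes named are the 10 members, each represented by its brightest tested probe set, the listed actin-system genes that passed any test, with Acta2, Myh9, Srf and Tpm3 always, and the 5 genes most like Cald1 and Actb. Symbols come from the platform annotation, and gene positions from RefSeq. Deviations of same-numbered samples from their group means correlated weakly (r from 0.0995 to 0.388 for MOE430A, from 0.00977 to 0.161 for MOE430B). Pairing was accepted only if every r exceeded 0.1, which was not met, so the main fit has no replicate block. Alternatives changed the offset, filter, scaling, weights, blocks and samples. A comparison of the proteins was not made here. The median of 1 of the 7 actin-system lists is not reported here.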

Additional observations from a re-analysis of the deposited data

Results flagged for a closer look

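The Actb probe set 1419734_at went opposite ways at the 2 stages in every wash batch. Its suspension minus monolayer difference in log2 was -0.27, -0.18 and -0.23 at D2 and 0.19, 0.33 and 0.15 at D1 in batches 1, 2 and 3. The interaction was -0.45 and did not pass limma's test, with an unadjusted p of 0.116 and an adjusted p of 1.00. The share of all probe sets with such a pattern is not given. The brighter Actb probe set had a D1 difference of -0.19 in batch 1 and of 0.18 and 0.21 in the other batches.

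The Cald1 probe set 1424770_at went opposite ways between stages in the 2 cultures. Its D2 minus D1 difference was -2.85, -0.01 and -1.14 in suspension and 0.23, 0.20 and 0.39 in monolayer in batches 1, 2 and 3. The interaction was -1.61 and did not pass limma's test, with an unadjusted p of 0.0587 and an adjusted p of 1.00. Here too the share of all probe sets is not given.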

How the results depend on the processing

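Counts of members that passed moved with the processing, while called differences kept their direction under all 20 alternatives run. That direction is no separate check, since every suspension sample of the comparison lay below every monolayer sample at these probe sets. With no filter on low signals, 0 members passed at D2 and 2 in the average over stages (0.0222% and 0.0999% of all probe sets tested). With the wash batch as a block 2 and 7 passed (0.0679% and 0.385% of all), and without the later wash run 0 and 0 (0.00377% and 0.0528%). Quantile normalization and median centring each left 3 in the average (0.245% and 0.192% of all). Leaving out each sample in turn gave 0 to 2 at D2 and 2 to 4 in the average, and the shares of all are not given for these fits. With the replicate block, 4 members passed at D2 and 7 in the average (0.336% and 0.83% of all). The block left the other 4 member counts at 0. Beside them, 0.113% of all passed at D1 and 0.728% for D2 minus D1 in monolayer, against 0.0528% and 0.00754% without the block. For D2 minus D1 in suspension and for the interaction, 0% of all passed with it. The replicate numbers were not taken to pair the samples, since the rule that every r exceed 0.1 was not met. Even so, every such r was positive, and on each chip 12 of 12 samples correlated best with a sample of their own number. An effect shared by samples of 1 number is thus possible, and the main fit does not model it. The member median at D1, -0.57, was -0.26 with array weights and -0.57 to -0.27 on leaving out a sample. The median of D2 minus D1 in monolayer was -0.025 to 0.14 and that of the interaction -0.19 to 0.022 on leaving out a sample. The median of D2 minus D1 in suspension was -0.17 with median centring, which moved the median of all probe sets to -0.06 there and to -0.09 in the interaction, against 0.03 and 0.02 as deposited. Of the brightest probe sets, Cald1 at D2 had adjusted p of 0.00330 to 0.311 over the alternatives in limma, and in the average Cald1 had 0.000691 to 0.134, Tagln 0.00386 to 0.164 and Tpm1 0.00119 to 0.312. The cause of these changes was not tested, beyond the fewer samples or added probe sets that some settings bring. Dim probe sets near the chip's offset limit what can be measured.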
